A study of Mus musculus with 15 samples.

Results

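Amino acid transporter genes were followed through 5 states of mouse bone marrow-derived macrophages (BMDMs). Members were all entries of the deposited expression table whose symbol begins with Slc1a, Slc3a, Slc6a, Slc7a, Slc36a, Slc38a or Slc43a followed by a number, leaving out *Slc7a11*, with no cut on level. The rule took 63 of the 20089 genes listed. Of these, 35 reached a mean of 0.1 FPKM (fragments per kilobase of exon, scaled to the mapped reads of the library) over the 15 samples, and only those were tested. A further 21 members lay under that limit, and 7 were listed at 0 in every sample.

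The BMDMs came from wild-type C57BL/6 mice and were grown in M-CSF (50 ng/mL), the survival and growth factor of macrophages. There were 3 samples each of control cells, which had M-CSF and neither stimulus, and of cells given RANKL (100 ng/mL) or lipopolysaccharide (LPS, 100 ng/mL) for 4 h or 72 h. RANKL turns these precursors into osteoclasts, and LPS is a bacterial product that turns them inflammatory. The methods give 4 days in M-CSF and the labels 3 days, and the methods give mice of 4 to 8 weeks for BMDM cultures in general. The sex of the mice and any pooling are not given in the sources used here. No control grown in M-CSF for the additional 72 h was analysed here, so time under a stimulus and time in culture cannot be told apart. The labels do not say that replicates are separate cultures or animals, so p-values measure the spread between these samples, which may be technical.

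Amino acids cross the plasma membrane and leave the lysosome through carriers of several families. Many light subunits of the Slc7 family work only when joined to the heavy subunit encoded by *Slc3a2*, whereas the cationic carriers of the same family work alone. In macrophages, arginine brought in by cationic carriers feeds nitric oxide synthase, and amino acids leaving the lysosome are sensed by the kinase complex mTORC1. Not every product of these families carries an amino acid of proteins. *Slc6a4* encodes the serotonin transporter, *Slc6a8* the creatine transporter, *Slc6a6* the taurine transporter and *Slc43a3* a purine nucleobase carrier. *Slc7a6os* and *Slc6a19os* match the rule by name but lie on the opposite strand beside *Slc7a6* and *Slc6a19* and are no transporters.

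Each sample held 18306184 to 20330207 fragments on listed genes, recovered from the steps of the FPKM values. Macrophage markers such as *Csf1r* and *Adgre1* summed to between 6046 and 17491 FPKM over 8 genes in every sample. Against control, 9 of 10 osteoclast markers rose in RANKL 72 h, and 10 of 10 tested LPS response genes rose in LPS 4 h and 8 of 10 in LPS 72 h. RNA of other cell types was present at changing levels, and in bulk RNA fewer cells of a type and less RNA per cell cannot be told apart. In RANKL 72 h, 15 of 18 stromal cell genes rose (summed FPKM 2372, 1102 and 524 in replicates 1 to 3, against 196 to 438 in control). Granulocyte genes summed to 7912 to 24341 FPKM in control, 1849 to 7451 in RANKL 72 h and 152 to 1816 in LPS 72 h. LPS 72 h replicate 3 stood apart from its group, with a mean correlation of 0.966 with the other two against 0.977 and 0.980 for replicates 1 and 2, a stromal sum of 616 FPKM against 146 and 154, and a granulocyte sum of 1816 FPKM against 186 and 152. In that sample the macrophage markers summed to 17491 FPKM, against 6086 and 7876 in replicates 1 and 2. The part of these cell types in the results below was not tested.

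In control BMDMs the transcripts with the highest level per length were *Slc6a6* (133 ± 36.8 FPKM, SD, n = 3), *Slc3a2* (98.6 ± 24.7), *Slc7a8* (89.6 ± 20.8), *Slc6a8* (56.4 ± 12) and *Slc43a2* (45.1 ± 8.27). The ranges of neighbours in this order overlapped, down to the step from *Slc43a2* to *Slc38a10* (31.5 ± 1.60), where they did not. *Slc6a6*, *Slc3a2* and *Slc7a8* together made up 50.5% ± 2.40 of the summed FPKM of the 35 members in control and 41.8% ± 2.41 in RANKL 72 h, below every control sample. The share was 50.02% ± 1.19 in RANKL 4 h, 53.2% ± 0.663 in LPS 72 h and, above every control sample, 59.2% ± 1.11 in LPS 4 h. The sum itself was 637 ± 21.2 FPKM in control and 635 ± 17.3 in RANKL 72 h, with overlapping samples. It was 738 ± 70.7 FPKM in RANKL 4 h, above every control sample, 585 ± 45.5 in LPS 4 h and 779 ± 132 in LPS 72 h, both overlapping control. In LPS 72 h *Slc3a2* had the highest mean (195 ± 76.0 FPKM), but in replicate 3 it lay below *Slc7a8* (108 against 126), and in RANKL 72 h *Slc1a5* (50.9 ± 17.0) stood among the 5 highest.

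A member was counted as higher or lower where the fold of FPKM + 0.1 was above 1.5 or below 0.66 and the unadjusted p was under 0.05 in limma, the thresholds of the study. Benjamini-Hochberg (BH) adjusted p-values over the 11743 genes tested are given beside. Against control, RANKL 4 h had 3 members higher and 0 lower (8.57% of the 35). Of all genes tested 2.56% were called, 1.21% higher and 1.35% lower. None of the 3 passed with a BH-adjusted p in limma, which 0.119% of all genes did. RANKL 72 h had 9 higher and 7 lower (45.7%), against 29.2% of all genes, 20.2% higher and 9.04% lower. Of these 16 members 14 passed with a BH-adjusted p, as did 24.2% of all genes. *Slc36a2*, *Slc38a4* and *Slc6a17*, among the 9 higher, reached the limit of 0.1 FPKM only through their RANKL 72 h samples. Their calls in comparisons with RANKL 72 h rest on the group that carried them past the filter, so they add no support. LPS 4 h had 1 higher and 13 lower (40%), against 49.8% of all genes, 8.75% higher and 41% lower. Of these 14 members 13 passed with a BH-adjusted p, as did 48.1% of all genes. LPS 72 h had 10 higher and 8 lower (51.4%), against 31% of all genes, 14.9% higher and 16.1% lower. Of these 18 members 13 passed with a BH-adjusted p, as did 27.4% of all genes. *Slc43a1*, among the 8 lower, reached the limit of 0.1 FPKM only through control and RANKL samples, so its call adds no support.

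The members' median log2 difference from control was 0.14 in RANKL 4 h, 0.26 in RANKL 72 h, -0.45 in LPS 4 h and 0.28 in LPS 72 h. Over all genes tested the medians were 0.00, 0.16, -0.52 and 0.08. The median gene thus lay lower in LPS 4 h. With every sample centred on its median gene, LPS 4 h had 8 members higher and 6 lower, RANKL 72 h had 6 higher and 8 lower, and LPS 72 h had 8 higher and 10 lower. Of all genes tested 31.7%, 26.9% and 29.9% were then called in these comparisons. With samples rescaled to equal sums, RANKL 4 h had 2 higher and 1 lower, against 2.63% of all genes called. The comparisons share the 3 control samples. *Slc38a1*, *Slc43a3*, *Slc6a6* and *Slc7a6os* were called in none of the 4 comparisons with control.

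**Figure D1:**
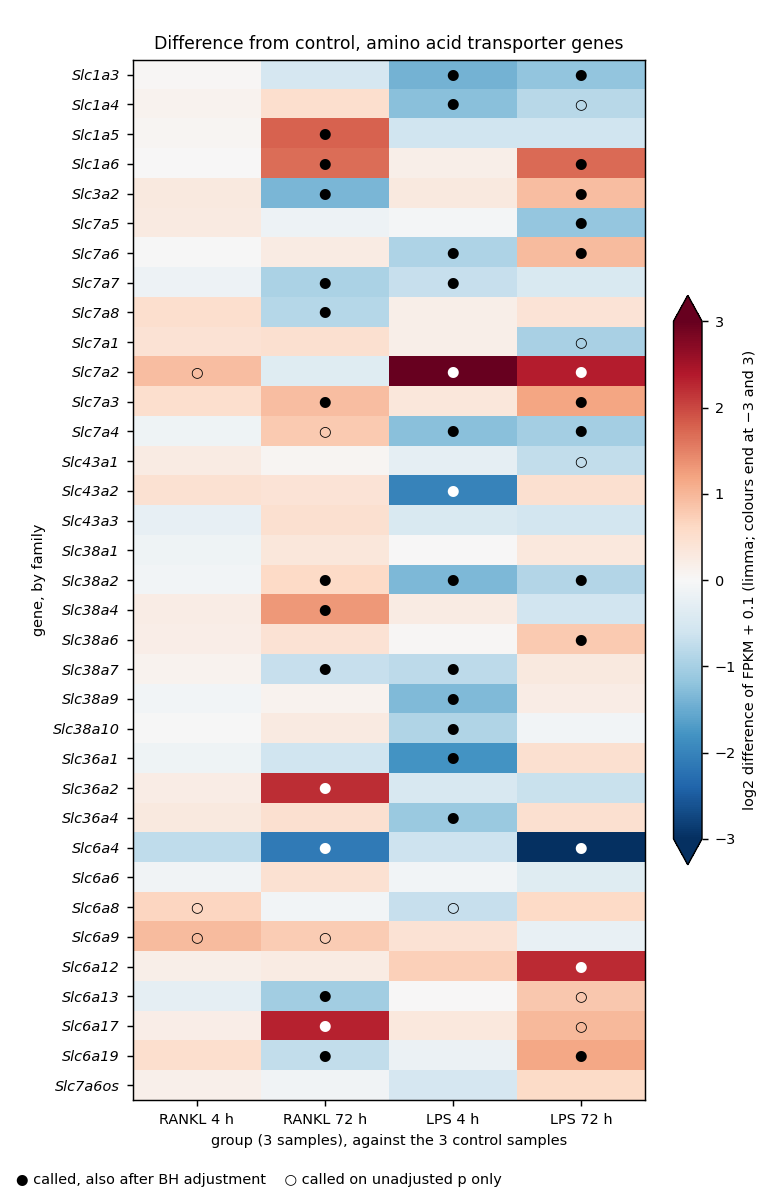
Log2 difference of FPKM + 0.1 from the 3 control samples for the 35 tested members (rows, by family) in the 4 stimulated groups (columns, 3 samples each), with filled circles for calls that also pass a BH-adjusted p and open circles for calls on the unadjusted p. The RANKL 4 h column holds 3 open circles and no filled one, the LPS 4 h column is blue in 13 called rows with *Slc7a2* as its red exception, and the columns of 72 h hold calls in both directions.

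*Slc7a2* encodes CAT2, a carrier of arginine and other cationic amino acids (chr8:40862396-40922308, plus strand, GRCm38). It stood at 1.82, 1.01 and 1.01 FPKM in control and at 54.7, 57.5 and 67.2 in LPS 4 h. All LPS 4 h samples lay far above all others of the series, and this was the member furthest from control in any comparison (log2 difference 5.49 ± 0.41, SE, limma, BH-adjusted p = 2.01e-07). The values in LPS 72 h, 7.86, 10.7 and 3.62 FPKM, had come down from 4 h (log2 difference -3.12 ± 0.41) but stayed above every control sample (2.36 ± 0.41, BH-adjusted p = 0.000674). In RANKL 4 h the samples held 2.98, 1.97 and 2.46 FPKM, all above control, and the call on the unadjusted p (log2 difference 0.93) was lost with a BH-adjusted p of 0.956 and when control replicate 2 or 3 or RANKL 4 h replicate 1 or 3 was left out (0.79 to 0.92). In RANKL 72 h they held 1.73, 0.910 and 0.490 FPKM, which overlapped control.

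The other cationic carriers moved less. *Slc7a1*, which encodes the widespread carrier CAT1, had 7.24 ± 2.37 FPKM in control and 8.07 ± 2.26 in LPS 4 h, and fell in LPS 72 h to 3.78 ± 1.72 (log2 difference -0.96 ± 0.37, limma, BH-adjusted p = 0.0574), where the groups overlapped and the call was lost without LPS 72 h replicate 3 (-0.62), control replicate 2 (-0.76) or control replicate 3 (-0.88). *Slc7a2* made up 15.4% ± 9.43 of the summed FPKM of the 4 tested cationic carriers in control, 87.8% ± 2.78 in LPS 4 h and 62.1% ± 3.77 in LPS 72 h (two-sided exact permutation p = 0.1 for each against control, the smallest that 3 against 3 allows). *Slc7a3* (CAT3) rose in both groups of 72 h from 0.111 FPKM to 0.316 with RANKL (0.92 ± 0.32, BH-adjusted p = 0.043, lost without RANKL 72 h replicate 3 at 0.65) and 0.391 with LPS (1.19 ± 0.32, BH-adjusted p = 0.0111). *Slc7a4*, a relative with no transport activity assigned, had 0.472 ± 0.150 FPKM in control, 0.870 ± 0.202 in RANKL 72 h, 0.137 ± 0.0347 in LPS 4 h and 0.181 ± 0.0699 in LPS 72 h. It was called higher with RANKL at 72 h on the unadjusted p (0.78 ± 0.31, BH-adjusted p = 0.0737), a call lost without control replicate 1 (0.57) or RANKL 72 h replicate 1 (0.64) or 2 (0.74), and lower with LPS at both times (-1.24 and -1.02, BH-adjusted p = 0.00368 and 0.0211). *Slc7a4* overlaps *P2rx6* on the other strand, and whether fragments were assigned by strand is not given in the sources used here, so its values are uncertain.

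**Figure D2:**
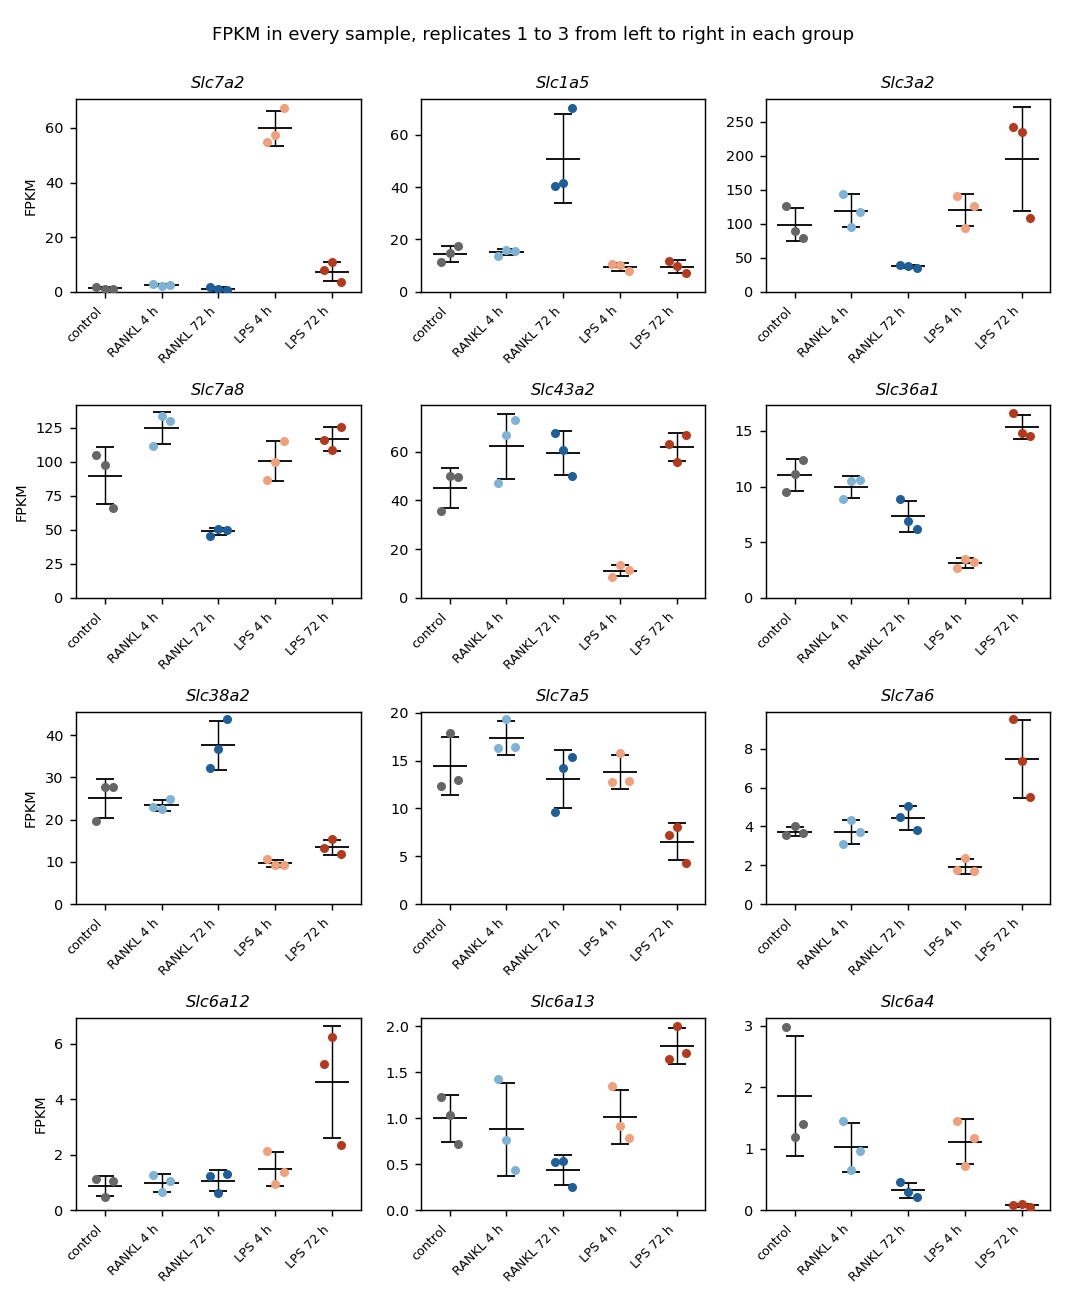
FPKM of 12 members in every sample (points, replicates 1 to 3 from left to right), with the group mean (line) and SD (bars) of 3 samples, on linear axes from 0. *Slc7a2* stands at 54.7 to 67.2 FPKM in LPS 4 h, *Slc1a5* at 40.6 to 70.5 in RANKL 72 h and *Slc43a2* at 8.65 to 13.3 in LPS 4 h, each apart from all control samples.

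*Slc3a2* encodes the heavy subunit 4F2hc, also called CD98 heavy chain (chr19:8706882-8723369, minus strand). It held 127, 89.7 and 79.7 FPKM in control, 39.5, 37.9 and 34.9 in RANKL 72 h and 243, 236 and 108 in LPS 72 h. Every RANKL 72 h sample lay below every other sample of the series, and LPS 72 h replicates 1 and 2 lay above all others while replicate 3 fell inside the control range. The gene fell in RANKL 72 h (log2 difference -1.37 ± 0.28, limma, BH-adjusted p = 0.00268) and rose in LPS 72 h (0.92 ± 0.28, BH-adjusted p = 0.02, and 1.31 without replicate 3). At 4 h it stood at 144, 96.0 and 118 FPKM with RANKL and 141, 93.8 and 125 with LPS, both overlapping control.

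Among the light subunits, *Slc7a8* encodes LAT2, an exchanger of neutral amino acids (chr14:54722209-54781946, minus strand). Its samples held 105, 97.7 and 66.0 FPKM in control and 45.6, 50.7 and 49.9 in RANKL 72 h, a fall (log2 difference -0.85 ± 0.16, limma, BH-adjusted p = 0.00171). In RANKL 4 h they held 111, 133 and 130 FPKM, above all control samples but within the fold limit, in LPS 4 h 86.3, 99.6 and 115, and in LPS 72 h 116, 108 and 126. LAT2 was the most abundant light subunit transcript in every sample, at 60.1% to 79.7% of the FPKM of the 4 tested light subunits.

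*Slc7a7*, which encodes y+LAT1, exporter of cationic amino acids in exchange for neutral ones, also fell in RANKL 72 h, from 33.5, 32.6 and 19.2 FPKM to 14.4, 14.3 and 14 (log2 difference -0.95 ± 0.19, limma, BH-adjusted p = 0.00262). It had 26.1, 27.7 and 21.1 FPKM in RANKL 4 h, 15.4, 20.7 and 15.6 in LPS 4 h and 20.4, 18.2 and 22.2 in LPS 72 h. LPS 4 h was called lower (-0.69 ± 0.19, BH-adjusted p = 0.00734) although LPS 4 h replicate 2 lay above control replicate 3, and the call was lost without control replicate 1 or control replicate 2 (-0.55 and -0.57) and with median-centred samples (-0.12). The gene overlaps *Oxa1l* on the other strand, which makes its values uncertain in the same way.

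*Slc7a5* and *Slc7a6* parted in LPS 72 h. *Slc7a5*, which encodes the leucine carrier LAT1, fell from 12.4, 17.9 and 12.9 FPKM in control to 7.25, 8.01 and 4.33 (log2 difference -1.16 ± 0.23, limma, BH-adjusted p = 0.00181). The other groups overlapped control for *Slc7a5*, with 16.3, 19.4 and 16.4 FPKM in RANKL 4 h, 9.60, 14.3 and 15.3 in RANKL 72 h and 12.8, 15.8 and 12.9 in LPS 4 h. *Slc7a6* encodes y+LAT2, the close relative of y+LAT1. It went from 3.54, 4.02 and 3.65 FPKM in control to 1.75, 2.37 and 1.68 in LPS 4 h and to 9.53, 7.39 and 5.49 in LPS 72 h, with no overlap at either time. The fall at 4 h (-0.93 ± 0.21, BH-adjusted p = 0.00175) was lost with median-centred samples (-0.36), and the rise at 72 h measured 0.95 ± 0.21 (BH-adjusted p = 0.00340). *Slc7a6* held 3.11, 4.34 and 3.71 FPKM in RANKL 4 h and 4.49, 5.05 and 3.80 in RANKL 72 h. *Slc7a5* overlaps the predicted gene *Gm20388* on the other strand, so its values are uncertain too.

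The heavy subunit was also set against its light subunits. The 4 light subunits summed to 136 ± 29.8 FPKM in control, 80.5 ± 5.60 in RANKL 72 h and 151 ± 8.02 in LPS 72 h. *Slc3a2* over this sum was 0.819, 0.589 and 0.782 in control and 0.533, 0.449 and 0.420 in RANKL 72 h, where all 3 ratios lay below control (two-sided exact permutation p = 0.1, the smallest possible). In LPS 72 h the ratio was 1.59 and 1.66 in replicates 1 and 2 and 0.684 in replicate 3, so the groups overlapped (p = 0.3 by the same exact test). *Slc7a11*, the cystine carrier left out by the rule, shares the heavy subunit and had 2.32 ± 0.649 FPKM in control, 64.4 ± 18.1 in LPS 4 h and 25.1 ± 10.2 in LPS 72 h. With it among the light subunits the mean ratio was 0.717 in control, 0.464 in RANKL 72 h, 1.10 in LPS 72 h and 0.623 in LPS 4 h, where it had been 0.918 without it. These are ratios of transcript levels per length and not of protein.

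**Figure D3:**
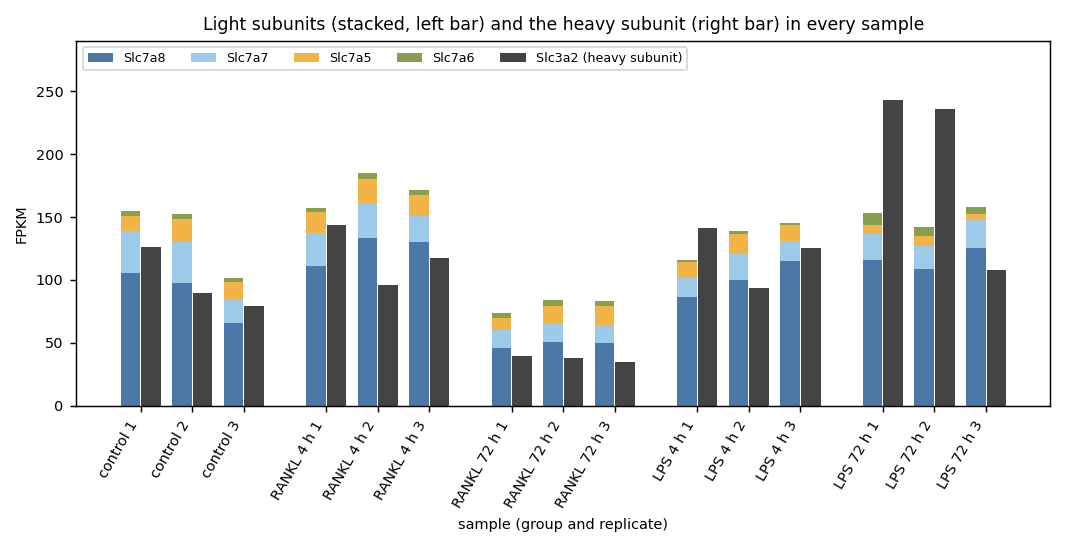
FPKM of the light subunits *Slc7a8*, *Slc7a7*, *Slc7a5* and *Slc7a6* (stacked left bar) and of the heavy subunit *Slc3a2* (right bar) in each of the 15 samples. Both bars are lowest in the 3 RANKL 72 h samples, where *Slc3a2* reaches 34.9 to 39.5 FPKM, and the heavy subunit bar exceeds the light subunit bar most in LPS 72 h replicates 1 and 2.

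*Slc1a5* encodes ASCT2, the sodium-dependent exchanger that brings glutamine into many growing cells (chr7:16781340-16798274, plus strand). It stood at 11.3, 14.9 and 17.4 FPKM in control and at 40.6, 41.5 and 70.5 in RANKL 72 h. The RANKL 72 h samples lay above all 12 others, and the rise held whichever sample was left out (log2 difference 1.77 ± 0.23, limma, BH-adjusted p = 0.000147). The osteoclast markers summed to 3168, 1721 and 5474 FPKM in the same replicates and to 155 to 280 in control. RANKL 4 h held 13.7, 15.8 and 15.7 FPKM, LPS 4 h 10.7, 10.2 and 7.86 and LPS 72 h 11.8, 9.91 and 7.17, none of them called.

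The other Slc1a members were far lower in level. *Slc1a4* (ASCT1, an exchanger of small neutral amino acids) held 1.34, 2.35 and 1.09 FPKM in control, 1.53, 1.88 and 1.53 in RANKL 4 h and 3.20, 2.01 and 1.67 in RANKL 72 h, with overlap throughout. It fell in LPS 4 h to 0.571, 0.736 and 0.456 FPKM (log2 difference -1.25 ± 0.33, limma, BH-adjusted p = 0.00548, and -0.69 and not called with median-centred samples), and in LPS 72 h, at 0.670, 1.34 and 0.587 FPKM, it passed on the unadjusted p only (-0.83) and not without control replicate 2 (-0.52), LPS 72 h replicate 1 (-0.70) or LPS 72 h replicate 3 (-0.62). The glutamate carrier gene *Slc1a3* (GLAST) fell from 0.798 ± 0.376 FPKM in control to 0.234 ± 0.115 in LPS 4 h and 0.286 ± 0.116 in LPS 72 h, with BH-adjusted p = 0.00427 and 0.0223 in limma. *Slc1a6* (EAAT4) rests on few fragments, 3, 7 and 5 in control, 39, 31 and 11 in RANKL 72 h and 8, 25 and 68 in LPS 72 h. Both rises passed (1.67 ± 0.54 and 1.70 ± 0.54, BH-adjusted p = 0.0319 and 0.0261), and the latter was 1.04 without LPS 72 h replicate 3, the sample with the highest stromal sum of its group.

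*Slc43a2* encodes LAT4, a facilitated carrier of large neutral amino acids (chr11:75531694-75577575, plus strand). Its values were 35.6, 50.2 and 49.6 FPKM in control, 8.65, 13.3 and 11.6 in LPS 4 h and 63.3, 55.6 and 66.8 in LPS 72 h. The LPS 4 h samples lay below all others (log2 difference from control -2.01 ± 0.20, limma, BH-adjusted p = 2.43e-06), and the fall held at -1.44 with median-centred samples. Between 4 h and 72 h of LPS the gene rose by 2.48 ± 0.20 (BH-adjusted p = 3.25e-07). With RANKL it held 47.2, 66.7 and 72.9 FPKM at 4 h and 67.8, 60.8 and 49.8 at 72 h, both overlapping control. *Slc43a3* was not called against control but was higher in RANKL 72 h (12.5 ± 1.21 FPKM) than in LPS 72 h (6.14 ± 1.58), and *Slc43a1* (LAT3) stayed at or below 0.216 FPKM in every sample. Its call as lower in LPS 72 h rested on the unadjusted p (-0.74 ± 0.33, limma, BH-adjusted p = 0.0902), with overlapping samples, and was lost without control replicate 1 (-0.80), control replicate 2 (-0.51), LPS 72 h replicate 1 (-0.73) or LPS 72 h replicate 2 (-0.57). *Slc43a1* reached the limit of 0.1 FPKM only through control and RANKL samples, with means of 0.0790 in LPS 4 h and 0.0300 in LPS 72 h. This call and its call in RANKL 72 h against LPS 72 h therefore add no support.

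Of the 7 tested Slc38 members, the sodium-coupled neutral carriers and their lysosomal relatives, 4 fell in LPS 4 h, where 41% of all genes tested were lower, and 2 of them (*Slc38a7* and *Slc38a10*) lost the call with median-centred samples. *Slc38a2* encodes SNAT2, a glutamine and alanine carrier that cells raise when amino acids are scarce (chr15:96687392-96699730, minus strand). It held 19.7, 27.7 and 27.8 FPKM in control, 10.6, 9.21 and 9.22 in LPS 4 h and 13.2, 15.3 and 11.8 in LPS 72 h, without overlap, and both falls passed (-1.35 ± 0.15 and -0.88 ± 0.15, limma, BH-adjusted p = 8.02e-06 and 0.000685). In RANKL 72 h it held 32.3, 36.7 and 43.9 FPKM, above every control sample (0.59 ± 0.15, BH-adjusted p = 0.0111), a call lost without control replicate 1 (0.43) or RANKL 72 h replicate 3 (0.47), with a pseudocount of 1, and with median-centred samples (0.37). In RANKL 4 h it held 23.0, 22.4 and 24.8 FPKM.

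*Slc38a9* encodes an arginine-regulated carrier of the lysosome that signals to mTORC1, and *Slc38a7* encodes SNAT7, which exports glutamine from the lysosome. *Slc38a9* fell from 2.28, 2.13 and 2.05 FPKM in control to 0.806, 0.770 and 0.838 in LPS 4 h (log2 difference -1.32 ± 0.22, limma, BH-adjusted p = 0.000161) and stood at 3.18, 2.82 and 1.81 in LPS 72 h. It held 1.87, 1.97 and 2.23 FPKM in RANKL 4 h and 3.08, 2.01 and 2.07 in RANKL 72 h. *Slc38a7* had 21.8, 25.1 and 20.7 FPKM in control, 11.1, 14.9 and 13.2 in LPS 4 h and 15.3, 14.7 and 11.8 in RANKL 72 h, both without overlap, while RANKL 4 h held 22.7, 25.6 and 24.7. Its fall with LPS at 4 h (-0.79 ± 0.25, BH-adjusted p = 0.0139) was lost with median-centred samples (-0.22), and its fall with RANKL at 72 h (-0.69 ± 0.25, BH-adjusted p = 0.0477) was lost without RANKL 72 h replicate 3 (-0.58) and with equal sums. In LPS 72 h *Slc38a7* held 37.0 and 34.9 FPKM in replicates 1 and 2 and 15.9 in replicate 3, and it was called higher only without that sample (0.67).

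*Slc38a10* and *Slc38a6* also moved with LPS. *Slc38a10* held 29.7, 32.8 and 32.0 FPKM in control, 28.9, 34.0 and 30.8 in RANKL 4 h, 38.4, 37.3 and 37.8 in RANKL 72 h and 28.4, 28.4 and 33.1 in LPS 72 h. It was called only in LPS 4 h, at 14.8, 19.8 and 16.5 FPKM (log2 difference -0.89 ± 0.12, limma, BH-adjusted p = 2.45e-05, and -0.33 and not called with median-centred samples). *Slc38a6* held 3.50, 4.60 and 5.07 FPKM in control and rose in LPS 72 h to 8.56, 8.17 and 6.23 (0.79 ± 0.23, BH-adjusted p = 0.0184). It held 4.33, 4.55 and 4.35 FPKM in LPS 4 h, 3.62, 5.22 and 6.66 in RANKL 4 h and 7.71, 4.54 and 5.79 in RANKL 72 h. *Slc38a1* (SNAT1) lay between 7.99 and 10.9 FPKM in the group means. *Slc38a4* rests on 81, 29 and 12 fragments in RANKL 72 h against 12, 12 and 3 in control, in the order of the stromal sums of those samples, and its call (1.30 ± 0.44, BH-adjusted p = 0.0388) fell to 0.72 and was lost without RANKL 72 h replicate 1, and to 1.05 and was lost without control replicate 3. It too reached the limit of 0.1 FPKM only through RANKL 72 h.

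*Slc36a1* encodes PAT1, a proton-coupled carrier that exports small amino acids from lysosomes (chr11:55204350-55236330, plus strand). It held 9.53, 11.1 and 12.4 FPKM in control, 2.67, 3.50 and 3.21 in LPS 4 h and 16.6, 14.9 and 14.6 in LPS 72 h. The groups were fully separated in the order LPS 4 h, control, LPS 72 h. The fall at 4 h passed (log2 difference -1.78 ± 0.16, limma, BH-adjusted p = 9.17e-07) and held at -1.22 with median-centred samples, whereas the values at 72 h were within the fold limit (0.48 ± 0.16). RANKL 4 h held 8.84, 10.5 and 10.6 FPKM, and RANKL 72 h 8.91, 6.88 and 6.16, below every control sample but within the fold limit (-0.59 ± 0.16), and called with median-centred samples (-0.81).

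*Slc36a4* (PAT4) went with LPS from 7.80, 9.32 and 13.0 FPKM in control to 3.31, 4.76 and 5.79 at 4 h (log2 difference -1.11 ± 0.24, limma, BH-adjusted p = 0.00140) and 16.4, 14.4 and 11 at 72 h, which overlapped control, and its fall was lost with median-centred samples (-0.54). With RANKL it held 10.1, 11.7 and 15.1 FPKM at 4 h and 16.5, 13.1 and 12.1 at 72 h. *Slc36a2* (PAT2) was near its floor outside RANKL 72 h, with 1, 4 and 6 fragments in control, 0, 8 and 9 in RANKL 4 h, 1 in each LPS 4 h sample, 1 in all of LPS 72 h and 60, 21 and 28 in RANKL 72 h. That rise (2.21 ± 0.42, BH-adjusted p = 0.00176) held whichever sample was left out. However, *Slc36a2* reached the limit of 0.1 FPKM for testing only through RANKL 72 h, the group where it is high.

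The promoters of *Slc36a1* and *Slc38a7* are shown because both genes encode lysosomal carriers that fell in LPS 4 h and because both hold an E-box, CACGTG, a palindrome read by MITF, TFEB and related factors. They were chosen after the matches were seen. Each is 250 bases before the RefSeq start on GRCm38.p6, 5′ to 3′ on the strand of the gene, at chr11:55204090-55204339 (plus strand) and chr8:95853492-95853741 (minus strand). Capitals mark CACGTG and, in *Slc38a7*, also the AP-1 site TGANTCA.
Slc36a1: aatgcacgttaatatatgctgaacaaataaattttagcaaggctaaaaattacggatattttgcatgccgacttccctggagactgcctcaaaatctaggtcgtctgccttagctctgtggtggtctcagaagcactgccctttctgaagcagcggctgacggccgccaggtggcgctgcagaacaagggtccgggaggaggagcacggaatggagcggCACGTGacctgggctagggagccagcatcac
Slc38a7: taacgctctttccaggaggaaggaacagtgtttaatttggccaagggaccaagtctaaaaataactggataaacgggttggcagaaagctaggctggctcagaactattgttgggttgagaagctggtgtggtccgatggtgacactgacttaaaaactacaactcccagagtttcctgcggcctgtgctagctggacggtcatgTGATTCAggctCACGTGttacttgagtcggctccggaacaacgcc
The E-box ends 26 bases before the RefSeq start in *Slc36a1* and 29 in *Slc38a7*. GENCODE begins *Slc38a7* further upstream, at chr8:95853539, so both marked stretches of *Slc38a7* lie within the gene as placed there. *Slc38a9* and *Slc36a4* also fell in LPS 4 h and have a promoter sequence, but hold no CACGTG in it. With median-centred samples the falls of *Slc38a7* and *Slc36a4* were lost. Among the 25 tested members with a promoter sequence, 4 held CACGTG (*Slc1a6*, *Slc36a1*, *Slc38a7* and *Slc43a1*), which is 16% against 9.70% of tested genes, counted over all starts in the same way, and 6.02% of single RefSeq promoters of this length. TGANTCA was in 5 (*Slc38a10*, *Slc38a7*, *Slc6a12*, *Slc6a17* and *Slc7a1*), against 5.97% of tested genes, and TGATGNAA, the core of the amino acid response element, in 1 (*Slc7a7*), against 2.63%. Both strands were searched, and a match is a description and not a site.

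*Slc6a12* and *Slc6a13* are neighbours on chromosome 6 in the same orientation (chr6:121343076-121365775 and chr6:121300227-121337733, plus strand). *Slc6a12* encodes the betaine and GABA carrier BGT1, and *Slc6a13* the GABA carrier GAT2. *Slc6a12* held 1.12, 0.469 and 1.05 FPKM in control and 5.26, 6.23 and 2.36 in LPS 72 h, where every sample was above control and replicate 3 was the lowest. The rise measured 2.24 ± 0.43 (log2, limma, BH-adjusted p = 0.00135). The other groups overlapped control for *Slc6a12*, with 1.26, 0.649 and 1.04 FPKM in RANKL 4 h, 1.24, 0.618 and 1.31 in RANKL 72 h and 2.15, 0.948 and 1.38 in LPS 4 h.

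*Slc6a13* held 1.23, 1.04 and 0.724 FPKM in control, 0.522, 0.540 and 0.253 in RANKL 72 h and 1.64, 2.01 and 1.71 in LPS 72 h, with the groups fully separated. It held 1.42, 0.767 and 0.442 FPKM in RANKL 4 h and 1.35, 0.913 and 0.783 in LPS 4 h. The fall with RANKL at 72 h (log2 difference -1.05 ± 0.36, limma, BH-adjusted p = 0.0385) was lost without RANKL 72 h replicate 3 (-0.77) and with a pseudocount of 1 (-0.47). The rise with LPS at 72 h (0.80 ± 0.36) passed on the unadjusted p only (BH-adjusted p = 0.0938) and was lost without LPS 72 h replicate 1 (0.86), replicate 2 (0.72) or replicate 3 (0.83) and without control replicate 2 (0.84) or control replicate 3 (0.61).

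The promoters of both neighbours are shown because they are the 2 of 25 members whose window holds the NF-kB site searched for (GGG, any pair of bases, then TTTCC, on either strand), found in 1.41% of single RefSeq promoters and, over all starts of a gene as counted for the members, in 1.91% of tested genes. They were also chosen after the matches were seen. They lie at chr6:121342324-121342573 for *Slc6a12* and chr6:121303389-121303638 for *Slc6a13* (GRCm38.p6, plus strand), and RefSeq lists 5 starts for the former and 3 for the latter, of which this is 1 each. The *Slc6a13* window lies inside the gene as placed by GENCODE, which begins at chr6:121300227. It precedes a start within the gene and not its first base. Capitals mark this site and, in *Slc6a12*, TGANTCA.
Slc6a12: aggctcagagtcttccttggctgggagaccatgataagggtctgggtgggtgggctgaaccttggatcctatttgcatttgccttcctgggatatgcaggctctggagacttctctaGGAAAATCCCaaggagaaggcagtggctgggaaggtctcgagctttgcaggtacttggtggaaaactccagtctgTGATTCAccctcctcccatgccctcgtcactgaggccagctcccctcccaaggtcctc
Slc6a13: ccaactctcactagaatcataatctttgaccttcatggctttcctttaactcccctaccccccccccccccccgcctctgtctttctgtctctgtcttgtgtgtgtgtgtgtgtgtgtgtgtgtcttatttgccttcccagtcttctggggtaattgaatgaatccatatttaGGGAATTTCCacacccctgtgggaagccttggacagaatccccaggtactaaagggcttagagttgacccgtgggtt

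*Slc6a4*, which encodes the serotonin transporter (chr11:76998603-77032340, plus strand), was the member that fell furthest from control on the log2 scale of FPKM + 0.1. It held 2.98, 1.19 and 1.41 FPKM in control, 0.459, 0.297 and 0.222 in RANKL 72 h and 0.0903, 0.0933 and 0.0481 in LPS 72 h (6, 6 and 3 fragments), with no overlap. The log2 differences were -2.13 ± 0.37 and -3.37 ± 0.37 (limma, BH-adjusted p = 0.000933 and 2.55e-05). Both calls held under every alternative, at -2.42 to -1.06 and -4.38 to -1.36. The LPS 72 h values lie under the pseudocount of 0.1, so the size of that fall depends on it. At 4 h it held 1.44, 0.655 and 0.965 FPKM with RANKL and 1.45, 0.717 and 1.18 with LPS, which passed only with the replicate number as a block (-0.76 and -0.63, unadjusted p = 0.0142 and 0.0349 in limma). Basophil and mast cell genes moved with it: 6 of 6 fell in RANKL 72 h and 6 of 6 in LPS 72 h, and their summed FPKM was 23.9 to 67.6 in control, 13.7 to 54.1 in RANKL 4 h, 0.798 to 3.87 in RANKL 72 h, 12.8 to 54.6 in LPS 4 h and 0.650 to 6.25 in LPS 72 h. Such falls were not particular to these cells. In both groups of 72 h 4 of 4 tested erythroid and 5 of 6 B cell genes fell. Granulocyte genes fell in 5 of 9 with RANKL and 9 of 9 with LPS, and endothelial genes in 2 and 3 of 4. Of 6 T and NK cell genes 1 fell in each group and 1 rose with RANKL, where 15 of 18 stromal genes also rose. The part of any of these cell types in the fall of *Slc6a4* was not tested.

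*Slc6a6*, the taurine transporter and the member with the highest level in control, held 94.4, 138 and 168 FPKM there and 167, 191 and 179 in RANKL 72 h, and was called in no comparison with control. *Slc6a8*, the creatine transporter, held 53.2, 46.4 and 69.7 FPKM in control, 75.7, 75.7 and 114 in RANKL 4 h and 32.1, 30.1 and 41.5 in LPS 4 h, both without overlap and both past the unadjusted p only (log2 difference 0.64 and -0.70, limma, BH-adjusted p = 0.965 and 0.0502). The call with RANKL was lost with the replicate number as a block (unadjusted p = 0.051 in limma) and without control replicate 1 (0.61), control replicate 2 (0.51) or RANKL 4 h replicate 3 (0.44). The call with LPS was lost without control replicate 3 (-0.54), LPS 4 h replicate 1 (-0.65) or LPS 4 h replicate 2 (-0.61) and with median-centred samples (-0.13). In LPS 72 h *Slc6a8* held 108, 111 and 49.1 FPKM and was called only without replicate 3 (0.98). *Slc6a9*, the glycine transporter GlyT1, was called in RANKL 4 h, from 0.510 ± 0.182 to 1.05 ± 0.208 FPKM (0.94 ± 0.28, BH-adjusted p = 0.453, with overlap by the genes *B4galt2* and *Ccdc24* on the other strand), the only RANKL 4 h call that held whichever sample was left out. In RANKL 72 h it held 0.942 ± 0.306 FPKM, a call on the unadjusted p only (0.77 ± 0.28, BH-adjusted p = 0.0553) that was lost without control replicate 1 (0.63), control replicate 3 (0.67), RANKL 72 h replicate 2 (0.69) or RANKL 72 h replicate 3 (0.58).

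*Slc6a17* (NTT4, a vesicular carrier of neutral amino acids) rose from 1, 3 and 3 fragments in control to 100, 19 and 111 in RANKL 72 h (log2 difference 2.30 ± 0.44, limma, BH-adjusted p = 0.00173). It reached the limit of 0.1 FPKM for testing only through these RANKL 72 h samples. LPS 72 h held 14, 12 and 30 fragments, a call on the unadjusted p only (0.97 ± 0.44) that was lost without LPS 72 h replicate 3 (0.72), LPS 72 h replicate 1 or any control sample (0.91 to 1.01). *Slc6a19*, which encodes the neutral carrier B0AT1, had 0.315 ± 0.0623 FPKM in control, 0.147 ± 0.0349 in RANKL 72 h and 0.844 ± 0.269 in LPS 72 h, again with fully separated groups. Its fall with RANKL (-0.75 ± 0.26, BH-adjusted p = 0.0438) was lost without control replicate 3 (-0.63), and its rise with LPS measured 1.16 ± 0.26 (BH-adjusted p = 0.00388).

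Members under the limit of 0.1 FPKM were not tested. *Slc1a1* (EAAT3) came closest, with a mean of 0.0987 FPKM over all samples and 0.414, 0.355 and 0.0801 in RANKL 72 h, and *Slc36a3* followed at 0.0896, while *Slc43a1* lay just inside at 0.103. *Slc1a2*, the glial glutamate transporter GLT-1, held at most 0.0112 FPKM in any control or RANKL sample and 0.0448, 0.0750 and 0.123 in LPS 4 h and 0.133, 0.190 and 0.0115 in LPS 72 h. Slc6a20a was listed at 0 except in LPS 4 h, with 2, 4 and 5 fragments. *Slc38a5*, *Slc38a11*, *Slc6a14*, *Slc6a18*, Slc6a20b, *Slc7a9* and *Slc7a12* were listed at 0 throughout, and a further 16 (*Slc1a7*, *Slc3a1*, *Slc38a3*, *Slc38a8*, *Slc6a2*, *Slc6a3*, *Slc6a5*, *Slc6a7*, *Slc6a11*, *Slc6a15*, *Slc6a16*, *Slc6a19os*, *Slc7a10*, *Slc7a13*, *Slc7a14* and *Slc7a15*) reached at most 0.176 FPKM in any sample.

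RANKL and LPS were then compared at the same time, without the control samples. Such a difference does not show which group moved. RNA of other cell types also differed: in RANKL 72 h against LPS 72 h, 13 of 18 stromal genes were higher and 1 lower. Of 9 granulocyte genes, 7 were higher and 0 lower. The part of these cells in the differences was not tested. At 72 h, 14 members were higher in RANKL and 11 higher in LPS, 71.4% of the 35. Of all genes tested 38.9% were called, 25.1% higher in RANKL and 13.8% higher in LPS. With a BH-adjusted p 23 members passed, as did 36.1% of all genes. Carriers higher in RANKL 72 h included *Slc1a5* (log2 difference 2.37 ± 0.23), *Slc38a2* (1.47 ± 0.15), *Slc7a1* (1.44 ± 0.37), *Slc1a4* (1.34 ± 0.33) and *Slc7a5* (1.01 ± 0.23). The 11 higher in LPS 72 h were *Slc6a8* (-0.67 ± 0.29, BH-adjusted p = 0.0722 in limma) and, with BH-adjusted p of at most 0.0325, *Slc7a2* (-2.73 ± 0.41), *Slc3a2* (-2.29 ± 0.28), *Slc6a12* (-1.98 ± 0.43), *Slc6a19* (-1.91 ± 0.26), *Slc6a13* (-1.85 ± 0.36), *Slc7a8* (-1.26 ± 0.16), *Slc36a1* (-1.07 ± 0.16), *Slc38a7* (-0.98 ± 0.25), *Slc7a6* (-0.71 ± 0.21) and *Slc7a6os* (-0.69 ± 0.24). The called light subunits were divided, LAT1 higher with RANKL and LAT2 and y+LAT2 higher with LPS. Without LPS 72 h replicate 3, 26 members were called, as were 43.7% of all genes. Of the 25 calls 21 held when any sample was left out, the exceptions being *Slc43a1*, *Slc6a8*, *Slc7a6* and *Slc7a6os*. The share of calls over all genes that held in this way was not counted. The call for *Slc7a6* fell to -0.52 without LPS 72 h replicate 1. The difference for *Slc36a2* (2.87 ± 0.42) rests on 1 fragment in LPS 72 h, so its size depends on the pseudocount.

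**Figure D4:**
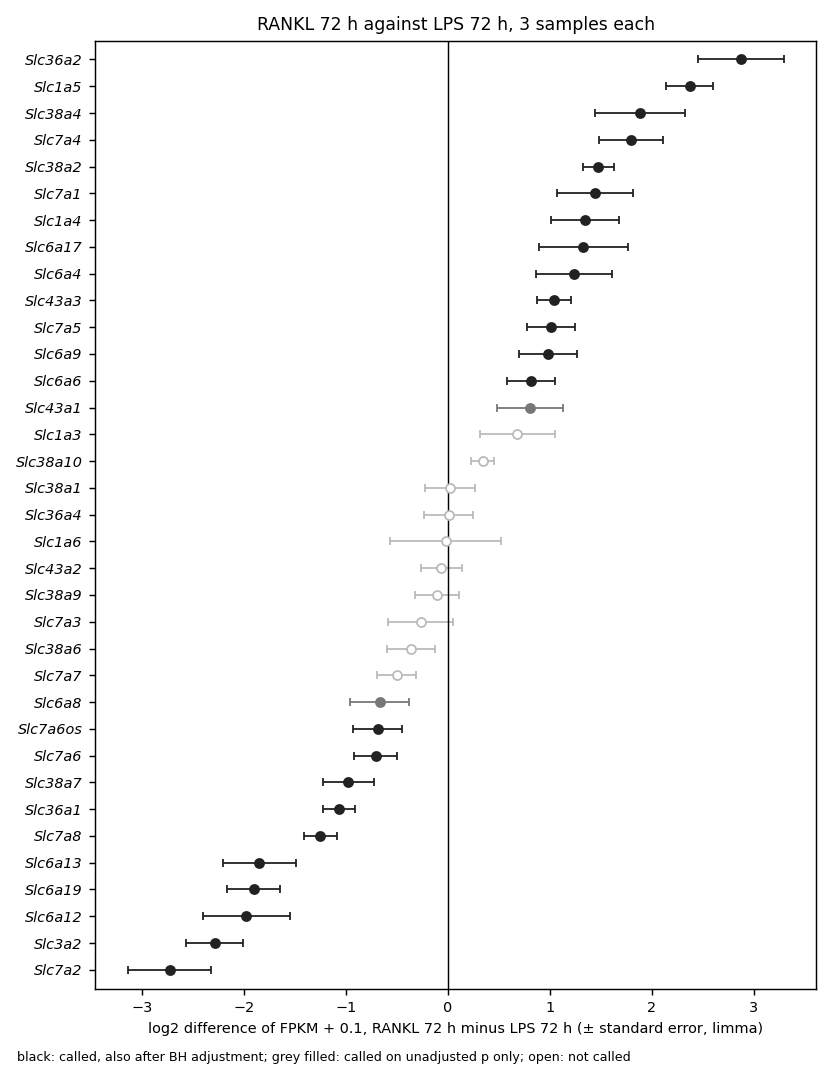
Log2 difference of FPKM + 0.1, RANKL 72 h minus LPS 72 h (points), with the standard error of the limma fit (bars), for the 35 tested members in order, with 3 samples in each group. Black points also pass a BH-adjusted p, grey filled points pass on the unadjusted p only and open points are not called. *Slc36a2* and *Slc1a5* stand at the RANKL end (2.87 and 2.37) and *Slc7a2* and *Slc3a2* at the LPS end (-2.73 and -2.29).

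At 4 h, 15 members were higher in RANKL and 1, *Slc7a2*, higher in LPS (45.7%), against 51.8% of all genes tested, 42.5% higher and 9.31% lower. All 16 passed with a BH-adjusted p, as did 50% of all genes. With median-centred samples 8 were higher and 4 lower, against 32.3% of all genes called, and 7 of the 15 were no longer called. Those that stayed higher in RANKL 4 h by both scalings included *Slc43a2* (2.46 ± 0.20, limma, BH-adjusted p = 3.67e-07), *Slc36a1* (1.65 ± 0.16), *Slc38a2* (1.27 ± 0.15) and *Slc38a9* (1.23 ± 0.22). For *Slc7a2* the log2 difference was -4.56 ± 0.41.

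Between the times, RANKL 72 h had 8 members higher and 9 lower than RANKL 4 h (48.6%), against 28.3% of all genes tested, 20.1% higher and 8.24% lower. With a BH-adjusted p 14 passed, as did 23.3% of all genes. There were 5 higher and 11 lower with median-centred samples, against 26% of all genes called. *Slc1a5* rose (log2 difference 1.70 ± 0.23), and *Slc3a2* (-1.65 ± 0.28), *Slc7a8* (-1.35 ± 0.16), *Slc7a2* (-1.30 ± 0.41) and *Slc7a7* (-0.80 ± 0.19) fell. LPS 72 h had 16 higher and 5 lower than LPS 4 h (60%), against 59.3% of all genes tested, 45% higher and 14.3% lower. With a BH-adjusted p 18 passed, as did 58.1% of all genes. There were 7 higher and 10 lower with median-centred samples, against 48.1% of all genes called. *Slc43a2* (2.48 ± 0.20), *Slc36a1* (2.27 ± 0.16), *Slc7a6* (1.88 ± 0.21), *Slc36a4* (1.59 ± 0.24) and *Slc38a9* (1.54 ± 0.22) were higher at 72 h than at 4 h of LPS by both scalings. Of the 13 members lower in LPS 4 h than in control, *Slc1a3*, *Slc1a4*, *Slc38a2* and *Slc7a4* were also called lower at 72 h, *Slc7a6* was called higher, and the other 8 were not called. The same split over all genes lower in LPS 4 h was not counted. Over all genes tested the median log2 difference of LPS 72 h from LPS 4 h was 0.52. Whether the split is particular to the carriers was not tested.

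Beside the carriers, genes of mTORC1 control by amino acids at the lysosome were counted, 27 of them tested. Against control 0 passed the fold and the unadjusted p in RANKL 4 h in limma, 5 were higher and 2 lower in RANKL 72 h, 2 higher and 14 lower in LPS 4 h, and 4 higher and 1 lower in LPS 72 h. Of all genes tested 29.2%, 49.8% and 31% were called in these 3 comparisons, with 41% lower in LPS 4 h. The median log2 difference of the list in LPS 4 h was -0.86, against -0.52 over all genes. The leucine sensors fell there, *Sesn1* from 23.7 to 0.832 FPKM (-4.67 ± 0.36) and *Sesn2* from 16.6 to 2.97 (-2.49 ± 0.21), as did *Flcn*, which activates the Rag GTPases (23.2 to 4.78, -2.29 ± 0.24), and the GTPase gene *Rragd* (3.82 to 0.633, -2.34 ± 0.37). In LPS 72 h *Flcn* and *Rragd* were above control (0.87 ± 0.24 and 1.10 ± 0.37). With a BH-adjusted p 5, 16 and 4 genes of this list passed in RANKL 72 h, LPS 4 h and LPS 72 h.

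Of 20 tested enzymes of amino acid synthesis, 5 were higher and 1 lower in RANKL 72 h, 2 higher and 10 lower in LPS 4 h and 0 higher and 7 lower in LPS 72 h, and 1 was higher in RANKL 4 h. The shares of all genes tested were 20.2% higher and 9.04% lower in RANKL 72 h, 8.75% and 41% in LPS 4 h, and 14.9% and 16.1% in LPS 72 h. *Glul*, glutamine synthetase, fell in LPS 4 h from 96.8 to 34.5 FPKM (log2 difference -1.49 ± 0.14, limma, BH-adjusted p = 1.03e-06). The 7 that fell in LPS 72 h were *Aldh18a1*, *Asns*, *Phgdh*, *Psat1*, *Pycr1*, *Shmt1* and *Shmt2*. Among them are enzymes of serine and glycine synthesis, with *Phgdh* going from 20.2 to 2.91 FPKM (-2.88 ± 0.32), *Psat1* from 23.7 to 6.92 (-1.75 ± 0.25), *Shmt1* from 3.99 to 1.04 (-1.86 ± 0.26) and *Shmt2* from 27.6 to 11.8 (-1.20 ± 0.19). In RANKL 72 h the mitochondrial aspartate aminotransferase gene *Got2* rose from 35.8 to 62.4 FPKM (0.82 ± 0.17), and the cytosolic and mitochondrial branched-chain aminotransferase genes *Bcat1* and *Bcat2* rose with it (1.14 ± 0.41 and 0.61 ± 0.15). The list's median log2 difference was 0.39 in RANKL 72 h, against 0.16 over all genes, and -0.29 in LPS 72 h, against 0.08.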

How the data were processed

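The authors deposited 1 table of FPKM values for 15 BMDM samples. Their methods name StringTie and Ballgown for this step, and the submitters' processing notes name the builds GRCm38.p4 and mm10. The aligner, the annotation and the use of strand in counting are not given in the sources used here. Its annotation columns were not used, and 1 incomplete entry at the end was left out. The values of 1 untested member are not reported here. Fragments were recovered from the steps between FPKM values (14485 genes, 100% of values within 0.01 of a whole number), a method tested on simulated data. Counting error understates the error of amplified libraries.

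limma 3.58.1 (R 4.3.3) was fitted to log2(FPKM + 0.1) for 5 groups together, with lmFit and eBayes and a trend of the variance, and gave 8 comparisons. Genes whose mean FPKM reached 0.1 entered, 11743 in all. The procedure was tested on simulated data. The fold limits (1.5 and 0.66) and p threshold (0.05) follow the study, which applied them with another tool. Log2 differences on this scale understate the change of low genes. Exact permutation tests of 3 against 3 samples were two-sided. Members with a group mean of at least 1 FPKM and a call against control with a BH-adjusted p are given by sample, and others by group mean, fragments or range.

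Members, gene lists and alternatives were chosen with earlier results of these data known. The alternatives were pseudocounts of 1 and 0.01, no filter and a filter at 1 FPKM, equal sums, median-centred samples, a fit of the compared groups, the replicate block, no trend, voom on recovered fragments, BH-adjusted p and each sample left out. The pairing of samples by replicate number was checked by the correlation of their deviations from the group means. It was 0.707 to 0.842 for control with RANKL 4 h, 0.136 to 0.318 with RANKL 72 h, 0.440 to 0.624 with LPS 4 h and -0.0299 to 0.184 with LPS 72 h, and the labels do not say what the number marks.

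Promoters came from RefSeq (GRCm38.p6), with sequence for 25 of the 35 tested members and entries missing for *Slc1a5*, *Slc36a2*, *Slc38a1*, *Slc43a3*, *Slc6a6*, *Slc6a8*, *Slc7a2*, *Slc7a3*, *Slc7a4* and *Slc7a5*. Genes were placed on GRCm38 with GENCODE M21. There *Slc7a2*, *Slc43a2*, *Slc6a4*, *Slc6a6*, *Slc6a13*, *Slc38a9* and *Slc38a10* overlap genes on the other strand that are not listed as protein-coding. Their values carry the same uncertainty of strand. Python 3.11.15, pandas 2.3.3 and scipy 1.17.1 were also used.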

Additional observations from a re-analysis of the deposited data

Results flagged for a closer look

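For 6 members the response to RANKL and the response to LPS were called in opposite directions against the same 3 control samples, and the difference itself passed in limma with a BH-adjusted p. These 6 were chosen by calls past the fold limits in opposite directions, so a large difference follows from the choice and adds no support. How many of all genes tested meet the same rule was not counted. At 72 h the difference, RANKL minus LPS on the log2 scale, was 1.47 for *Slc38a2* (0.59 with RANKL and -0.88 with LPS, BH-adjusted p = 5.76e-06) and 1.8 for *Slc7a4* (0.78 and -1.02, BH-adjusted p = 0.000392). It was -2.29 for *Slc3a2* (-1.37 and 0.92, BH-adjusted p = 2.13e-05), -1.91 for *Slc6a19* (-0.75 and 1.16, BH-adjusted p = 5.83e-05) and -1.85 for *Slc6a13* (-1.05 and 0.80, BH-adjusted p = 0.00084). At 4 h it was 1.34 for *Slc6a8* (0.64 and -0.70, BH-adjusted p = 0.00125), where neither response alone passed with a BH-adjusted p. The RANKL call of *Slc7a4* and the LPS call of *Slc6a13* did not pass with a BH-adjusted p either. When 1 sample was left out, the RANKL calls of *Slc38a2*, *Slc7a4* and *Slc6a19* and both calls of *Slc6a13* and *Slc6a8* could be lost, while the calls of *Slc3a2* and the 6 differences themselves held.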

How the results depend on the processing

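The count of members called against control in RANKL 4 h (3) was 1 with a pseudocount of 1, 0 with BH-adjusted p and 1 to 5 when 1 sample was left out, the lowest without RANKL 4 h replicate 3 and the highest without RANKL 4 h replicate 1. In RANKL 72 h the count (16) was 8 with a pseudocount of 1 and 7 with a mean of at least 1 FPKM, in LPS 72 h (18) it was 10 and 10, and in RANKL 72 h against RANKL 4 h (17) it was 10 and 9. The stricter limit leaves fewer genes to test, and the cause of the former was not tested. Leaving out 1 sample gave 11 to 17 calls in RANKL 72 h, 13 to 15 in LPS 4 h, 13 to 18 in LPS 72 h and 21 to 26 in RANKL 72 h against LPS 72 h, with the other comparisons at 14 to 20. All other counts stayed within 1.5 times. Of the calls against control, 8 of 16 in RANKL 72 h, 12 of 14 in LPS 4 h and 13 of 18 in LPS 72 h held whichever sample was left out. For the pseudocount, the filter and the samples left out, these counts were not set beside shares over all genes. They show how far the calls depend on the setting and no trait of the members. Fitting the replicate block called 3 members in RANKL 4 h, 16 in RANKL 72 h, 15 in LPS 4 h and 18 in LPS 72 h, and changed no call but those of *Slc6a4* and *Slc6a8* at 4 h. With the block 3.07%, 30.7%, 51.1% and 32.1% of all genes were called in these comparisons. The 77 calls of the members given by sample had 1304 values under the alternatives, of which 1223 kept the call, 80 lost it and 1 changed sign, *Slc3a2* in LPS 72 h against LPS 4 h at -0.018 with median-centred samples (0.63 as reported). Members at a few fragments per sample, such as *Slc36a2*, *Slc38a4* and *Slc1a6*, are limited by depth.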

Other observations

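Amino acid and peptide carriers outside the rule were read from a separate list, of which 13 genes were tested. Against control, 0 were higher and 1 lower in RANKL 4 h, 1 higher and 4 lower in RANKL 72 h, 3 higher and 8 lower in LPS 4 h and 3 higher and 4 lower in LPS 72 h. Of all genes tested, 2.56%, 29.2%, 49.8% and 31% were called in these comparisons, with 8.75% higher and 41% lower in LPS 4 h, where the median of all genes lay at -0.52. The lysosomal exporters *Ctns*, for cystine (11.1 to 2.45 FPKM, log2 difference -2.13 ± 0.22), *Pqlc2*, for cationic amino acids (6.76 to 1.54, -2.06 ± 0.21), and *Slc17a5*, for sialic acid (9.37 to 2.13, -2.05 ± 0.23), fell in LPS 4 h. *Slc15a3*, a lysosomal peptide and histidine carrier, went from 240 FPKM in control to 560 in LPS 4 h (1.23 ± 0.24) and 494 in LPS 72 h (0.99 ± 0.24), and to 64.2 in RANKL 72 h (-1.91 ± 0.24). *Slc25a22*, a mitochondrial glutamate carrier, went from 25.4 to 48.5 FPKM in LPS 4 h (0.97 ± 0.22), to 15.7 in LPS 72 h (-0.66 ± 0.22) and to 9.83 in RANKL 72 h (-1.33 ± 0.22). All of these passed in limma with a BH-adjusted p of at most 0.0305.

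*Slc7a6os*, which is no transporter, was called in no comparison with control, with group means of 11.8 FPKM in control and 8.38 to 18.9 in the other groups, and was higher in LPS 72 h without replicate 3 (0.97).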
